A study of Mus musculus with 6 samples.

Results

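*Plvap* and 8 genes that build the caveola coat were examined in sorted coronary endothelial cells (ECs). The cells came from mouse hearts with *Wt1* intact or deleted in ECs. The 9 genes, *Plvap*, *Cav1*, *Cav2*, *Cavin1*, *Cavin2*, *Cavin3*, *Ehd2*, *Ehd4* and *Pacsin2*, were found by symbol among the 55416 genes of the count table. They were chosen with this comparison of the same 6 libraries already known, so their differences between genotypes are given as a description. Where a fit over all genes called one of them, the call is counted and nothing is read from it. All 9 passed the filter on low counts (10 or more in 2 or more of the 6 libraries), which left 16296 genes, and the lowest count of any of them in a library was 1684.

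The hearts were from embryos at E15.5. *ControlΔEC* embryos were Pdgfb-CreERT2/+, Wt1 +/+ and R26-mTmG/+, and *Wt1KOΔEC* embryos were Pdgfb-CreERT2/+, Wt1 loxP/loxP and R26-mTmG/+. Both genotypes therefore carried the inducible Cre under *Pdgfb* control and the reporter, and both were exposed to tamoxifen, given to the dam at 75 mg/kg between E11.5 and E13.5. Ventricles were dissociated and the cells with membrane GFP, in which the reporter had recombined, were sorted. SMART-seq2 RNA-Seq libraries, 3 per genotype, were labelled as biological replicates, and p-values measure the spread between these libraries. The number of embryos behind a library was not given in the sources used here.

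Caveolae are flask-shaped pits of the plasma membrane that are especially dense in ECs. Caveolins form the scaffold in the membrane, cavins coat it from the cytosol, EHD ATPases sit at the neck and pacsin 2 helps to bend the membrane. PLVAP is a different kind of component, an endothelial glycoprotein that forms the thin diaphragms across the openings of caveolae, fenestrae and transendothelial channels. Caveolae are not exclusive to ECs, and fibroblasts, smooth muscle cells and cardiomyocytes also make them.

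The libraries held 26037324 to 44779020 counts, so that 3 counts, taken as the floor of detection, made 0.0608 to 0.119 CPM (the normalized count, scaled by library total and TMM factor); this floor covers counting error only. All 10 endothelial markers on a list of *Pecam1*, *Cdh5*, *Kdr*, *Tek*, *Tie1*, *Erg*, *Emcn*, *Egfl7*, *Esam* and *Cldn5* were detected, and their summed level was 5870 to 7244 CPM in *ControlΔEC* and 5729 to 6628 CPM in *Wt1KOΔEC*. *Wt1* itself was at 145, 110 and 149 CPM in *ControlΔEC* and at 14.0, 18.4 and 21.3 CPM in *Wt1KOΔEC*. It was thus lower in every *Wt1KOΔEC* library than in every *ControlΔEC* library, but not absent. *ControlΔEC* replicate 2 stood apart from replicates 1 and 3 in several genes, *Cav1* among them, and values are given with and without it where it matters. *Rn18s* took 13.2% to 15.3% of counts in *ControlΔEC* and 21.1% to 26.5% in *Wt1KOΔEC*, and mitochondrially encoded genes 5.21% to 6.61% and 1.68% to 4.57%. The part of these shares in the results below was not tested, and a batch that follows genotype cannot be told apart from genotype. A fit without those genes again called *Plvap* alone among the 9. It cannot show that part, because leaving genes out keeps the counts of all others as they were.

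*Plvap* was the member that differed most between the genotypes. It was higher in *Wt1KOΔEC*, whereas *Cav1* and *Ehd4*, the only coat genes without overlap, were lower. *Plvap* was at 63.2, 82.8 and 58.4 CPM in *ControlΔEC* replicates 1, 2 and 3. It was at 331, 361 and 321 CPM in *Wt1KOΔEC* replicates 1, 2 and 3. Every *Wt1KOΔEC* library was far above every *ControlΔEC* library, and within each genotype the libraries lay close together. The fitted log2 fold change was 2.31 (SE 0.18, n = 3 libraries per genotype), which is 4.96-fold, and with any 1 library left out it lay between 2.21 (without *ControlΔEC* replicate 3) and 2.48 (without *ControlΔEC* replicate 2). In the bulk RNA of sorted cells, more cells that express a gene and more RNA per cell cannot be told apart. *Plvap* (ENSMUSG00000034845.7) lies on the minus strand of chromosome 8, from 71948674 to 71964506 in GRCm39, and its exons share 834 bp with those of *Gtpbp3* on the other strand, which reads without strand cannot separate. *Gtpbp3* was at 11.7 to 25.2 CPM over the 6 libraries, with a log2 fold change of 0.07 (SE 0.32).

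**Figure D1:**
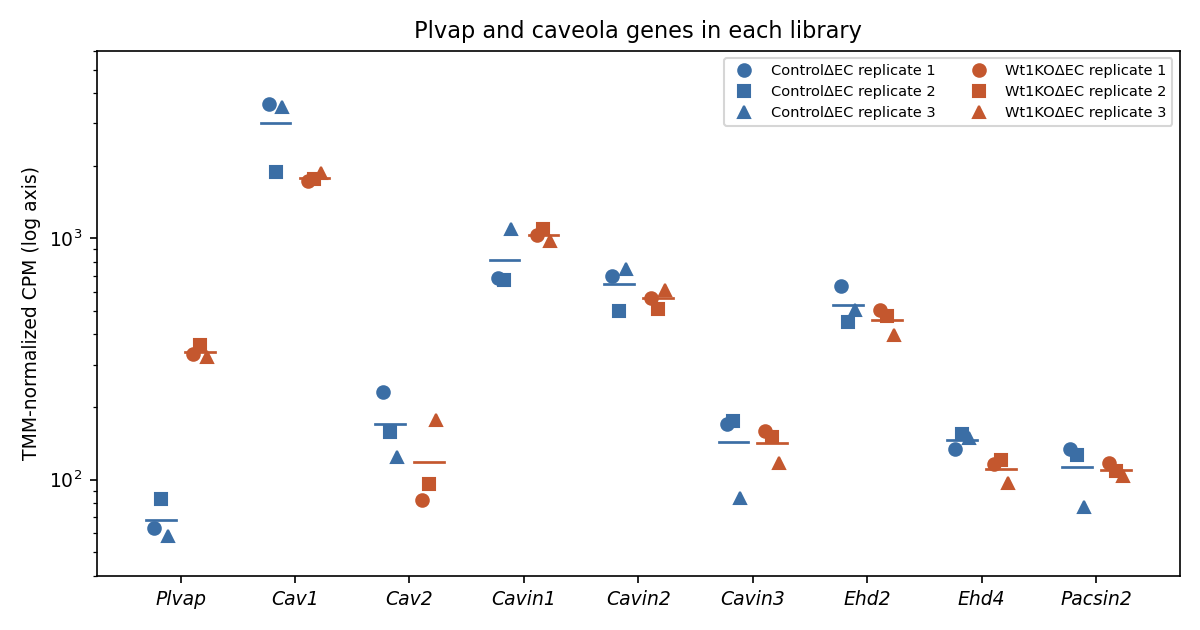
TMM-normalized CPM of the 9 genes (log axis) in the 3 *ControlΔEC* libraries (blue) and the 3 *Wt1KOΔEC* libraries (orange); marker shapes give the replicate number and horizontal bars the group means. *Plvap* sits between 58.4 and 82.8 CPM in *ControlΔEC* and between 321 and 361 CPM in *Wt1KOΔEC*, while *Cav1* in *ControlΔEC* replicate 2 (1886 CPM) lies close to the *Wt1KOΔEC* libraries.

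*Cav1* encodes caveolin 1, without which ECs form no caveolae. It was at 3607, 1886 and 3505 CPM in *ControlΔEC* replicates 1, 2 and 3. It was at 1733, 1758 and 1859 CPM in *Wt1KOΔEC* replicates 1, 2 and 3. The genotypes did not overlap, but *ControlΔEC* replicate 2 was only just above the highest *Wt1KOΔEC* library and the other 2 *ControlΔEC* libraries were near each other and far above it. The log2 fold change was -0.75 (SE 0.23, n = 3 per genotype), and it moved to -0.99 without *ControlΔEC* replicate 2 and to -0.59 without *ControlΔEC* replicate 1. *Cav2* encodes caveolin 2, which needs caveolin 1 to reach the cell surface. It was at 230.3, 157 and 124 CPM in *ControlΔEC* and at 82.7, 95.6 and 176 CPM in *Wt1KOΔEC*. *Wt1KOΔEC* replicate 3 was above 2 of the 3 *ControlΔEC* libraries, so the genotypes overlapped. The log2 fold change of *Cav2* was -0.53 (SE 0.32), and with 1 library left out it ranged from -0.94 (without *Wt1KOΔEC* replicate 3) to -0.25 (without *ControlΔEC* replicate 1).

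*Cav2* and *Cav1* are neighbours on the plus strand of chromosome 6 in GRCm39, with *Cav2* from 17281026 to 17289877 and *Cav1* from 17306140 to 17341451, 16.26 kb apart. The promoter windows of both are shown because they are the caveolin genes and because *Cav1* has 2 annotated starts. That of *Ehd4* is shown because it was the only coat gene besides *Cav1* whose libraries did not overlap. Each window runs from 250 bases before to 50 bases after a RefSeq start, 5′ to 3′ on the gene's strand, in GRCm38.p6. Capitals mark matches, on either strand, to GNGNGGGNG, a loose form of the G-rich motif of WT1 and EGR factors.
*Cav1* first start, chr6:17306085-17306384, plus strand: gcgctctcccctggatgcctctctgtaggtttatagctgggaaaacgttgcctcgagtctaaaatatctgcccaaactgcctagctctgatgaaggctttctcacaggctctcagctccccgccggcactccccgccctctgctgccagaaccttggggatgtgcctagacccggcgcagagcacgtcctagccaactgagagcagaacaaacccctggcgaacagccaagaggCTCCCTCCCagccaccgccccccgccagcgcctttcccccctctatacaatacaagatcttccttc
*Cav1* second start, chr6:17307390-17307689, plus strand: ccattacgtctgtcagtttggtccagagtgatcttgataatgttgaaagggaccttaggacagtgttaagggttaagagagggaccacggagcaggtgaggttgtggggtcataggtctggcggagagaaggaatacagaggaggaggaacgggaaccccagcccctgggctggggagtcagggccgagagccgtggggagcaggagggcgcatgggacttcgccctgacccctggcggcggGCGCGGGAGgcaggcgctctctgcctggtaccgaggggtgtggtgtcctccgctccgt
*Cav2*, chr6:17280935-17281234, plus strand: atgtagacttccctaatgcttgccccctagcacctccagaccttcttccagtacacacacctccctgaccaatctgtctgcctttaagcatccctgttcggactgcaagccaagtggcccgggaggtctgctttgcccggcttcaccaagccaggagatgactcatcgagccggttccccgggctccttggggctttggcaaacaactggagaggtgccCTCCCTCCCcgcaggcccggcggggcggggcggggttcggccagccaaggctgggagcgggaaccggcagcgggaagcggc
*Ehd4*, chr2:120154526-120154825, minus strand: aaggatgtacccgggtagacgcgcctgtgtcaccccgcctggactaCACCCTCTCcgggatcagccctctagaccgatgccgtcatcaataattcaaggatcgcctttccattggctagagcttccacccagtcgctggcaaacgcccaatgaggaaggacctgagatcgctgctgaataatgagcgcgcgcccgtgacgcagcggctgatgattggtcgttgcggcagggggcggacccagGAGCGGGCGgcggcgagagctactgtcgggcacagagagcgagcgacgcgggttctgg
In the window of the first *Cav1* start the match covered bases -16 to -8 from the start, and in that of *Cav2* bases -31 to -23, both as the same letters on the opposite strand. At the second *Cav1* start and at *Ehd4* a match ended on the first transcribed base. *Ehd4* had a second match at bases -204 to -196.

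Of the 9 genes, 7 had windows in the RefSeq promoter table, 11 windows in all, since *Cav1* and *Cavin1* have 2 and *Pacsin2* has 3; *Plvap* and *Cavin3* were not matched. The G-rich motif was present in 9 of the 11 windows, with 7 overlapping or separate matches at *Ehd2* and none at *Cavin2* or the second *Pacsin2* start. The 2 *Cavin1* windows nearly coincide and hold the same match. Over all 32851 windows of this length, 39.6% held the motif. The windows of the 7 genes were rich in G and C (median 62.3%, range 43.3% to 67.0%) against a median of 52.7% over all windows. Among the 3192 windows whose GC content lay within 2 percentage points of 62.3%, 60.6% held the motif. GGGCGG, the GC box bound by SP factors, was found on either strand in 7 of the 11 windows, against 35.7% of all windows and 69.2% of those of like GC content. A match is a string of letters in a window and was not tested as a site.

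*Cavin1* encodes the cavin that every caveola coat requires, and it was the only coat gene with a positive fold change. It was at 686, 674 and 1094 CPM in *ControlΔEC* and at 1029, 1095 and 976 CPM in *Wt1KOΔEC*. *ControlΔEC* replicate 3 was as high as the *Wt1KOΔEC* libraries, and replicates 1 and 2 were below all of them. The log2 fold change was 0.34 (SE 0.20), rising to 0.61 without *ControlΔEC* replicate 3. *Cavin2*, which shapes the membrane curvature of caveolae, was at 701, 502 and 747 CPM in *ControlΔEC* and at 568, 512 and 614 CPM in *Wt1KOΔEC*. The *Wt1KOΔEC* values lay within the *ControlΔEC* range, and the log2 fold change was -0.20 (SE 0.18). *Cavin3*, which links the coat to signalling proteins, was at 169.9, 175 and 83.6 CPM in *ControlΔEC* and at 159, 151 and 118 CPM in *Wt1KOΔEC*. Its group means were 143 and 142 CPM, and its log2 fold change of -0.0026 (SE 0.27) took either sign when 1 library was left out, from -0.27 to 0.17.

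*Ehd2* encodes the ATPase that holds caveolae at the membrane, and *Ehd4* a relative that can act beside it. *Ehd2* was at 633, 452 and 503 CPM in *ControlΔEC* and at 505, 477 and 397 CPM in *Wt1KOΔEC*, with overlap (log2 fold change -0.20, SE 0.18). *Ehd4* was at 135, 154 and 149 CPM in *ControlΔEC* and at 116, 120.2 and 97.0 CPM in *Wt1KOΔEC*. The *Ehd4* libraries did not overlap, and its log2 fold change of -0.40 (SE 0.15), within the limit of 0.58 for a call, was the steadiest of the coat, between -0.46 and -0.31 with any 1 library left out. *Pacsin2*, the membrane-bending F-BAR protein, was at 133, 127 and 77.2 CPM in *ControlΔEC* and at 118, 109 and 103 CPM in *Wt1KOΔEC*. Its log2 fold change was -0.03 (SE 0.21), and *ControlΔEC* replicate 3 was its lowest library, as it was for *Cavin3*.

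**Figure D2:**
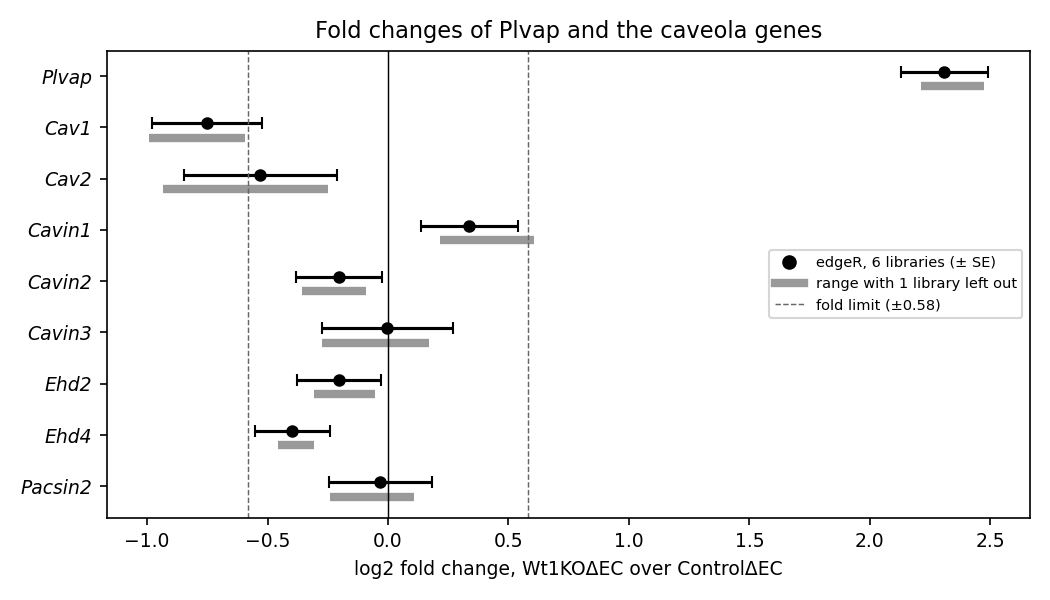
Log2 fold change of each gene, *Wt1KOΔEC* over *ControlΔEC*, from edgeR (black points, bars ± SE), with the range over the 6 fits that leave out 1 library (grey) and the fold limit of 0.58 in either direction (dashed). *Plvap* lies at 2.31, *Cav1* at -0.75 and the other 7 between -0.53 and 0.34.

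A gene was called at a Benjamini-Hochberg adjusted p under 0.05 over all genes tested and an absolute log2 fold change above 0.58. Of the 9 genes, edgeR's quasi-likelihood fit called 1, *Plvap*, against 0.0736% of all genes tested. DESeq2, the tool of the study's methods, fitted without the filter on low counts, called 2, *Plvap* and *Cav1*, against 4.83% of the genes to which it gave an adjusted p. With edgeR and no adjustment of p, the same 2 passed, against 10.1% of all genes tested. Without *ControlΔEC* replicate 2, edgeR called *Cav1* as well, against 0.165% of the genes then tested. *Plvap* was the 1 gene higher without overlap between the libraries, against 10.3% of all genes tested, and *Cav1* and *Ehd4* were the 2 lower without overlap, against 8.97%. Nothing is read from these counts, because the genes were chosen on this contrast. The median log2 fold change was -0.20 over the 9 genes and -0.03 over all genes tested.

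The 8 coat genes together were dominated by *Cav1*. Their summed level was 6295, 4126 and 6284 CPM in *ControlΔEC* replicates 1, 2 and 3. It was 4310, 4317 and 4340 CPM in *Wt1KOΔEC* replicates 1, 2 and 3. *ControlΔEC* replicate 2 was below all 3 *Wt1KOΔEC* libraries and the other 2 *ControlΔEC* libraries were well above them. Without *Cav1* the sum was 2688, 2240 and 2779 CPM in *ControlΔEC* and 2577, 2559 and 2481 CPM in *Wt1KOΔEC*, so the 2 genotypes overlapped. *Cav1* made up 57.3%, 45.7% and 55.8% of the coat sum in *ControlΔEC* and 40.2%, 40.7% and 42.8% in *Wt1KOΔEC*. That share did not overlap between the genotypes. It is computed from *Cav1*, which was chosen on this contrast and did not overlap itself, so nothing more is read from it.

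**Figure D3:**
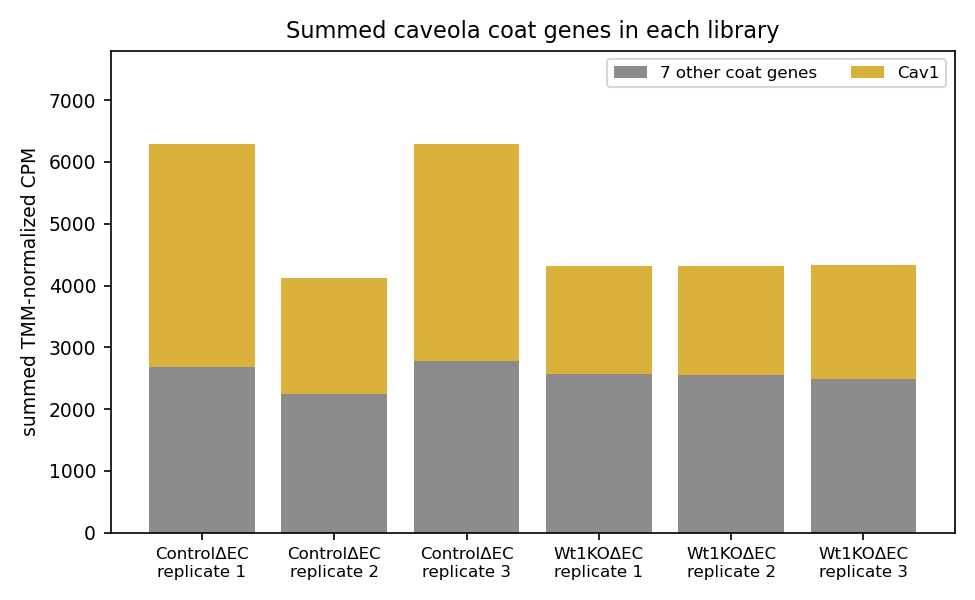
Summed TMM-normalized CPM of the 8 caveola coat genes in each library, with *Cav1* (yellow) stacked on the 7 others (grey); the axis starts at 0. The grey part lies between 2240 and 2779 CPM in all 6 libraries, and the *Cav1* part is largest in *ControlΔEC* replicates 1 and 3.

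The order of the genes was compared on CPM per kb of exonic length. That length joins the exons of all annotated transcripts of a gene and can exceed that of the RNA made, so the order is approximate. On CPM without division by length *Plvap* was ninth in *ControlΔEC*, below *Pacsin2*. *Cav1* was first in both genotypes, at 601 ± 193 CPM per kb (SD, n = 3) in *ControlΔEC* and 357 ± 13.4 CPM per kb in *Wt1KOΔEC*, and ranked 26th and 61st of 16238 genes with a length. *Cavin1* was second, at 154 ± 44.95 and 194 ± 11.2 CPM per kb, and its libraries did not overlap with those of *Cav1* or of the next gene in either genotype. *Plvap* was eighth of 9 in *ControlΔEC*, at 17.7 ± 3.36 CPM per kb, below *Ehd4* and above *Pacsin2* without overlap. In *Wt1KOΔEC* it was the third, at 87.9 ± 5.34 CPM per kb, overlapping with *Cavin2* below it. Among all genes its rank was 1576 in *ControlΔEC* and 315 in *Wt1KOΔEC*. *Cavin2* and *Ehd2* overlapped in both genotypes (94.3 ± 18.9 against 83.6 ± 14.8 CPM per kb in *ControlΔEC*, and 81.9 ± 7.42 against 72.5 ± 8.84 CPM per kb in *Wt1KOΔEC*), as did *Cavin3* with *Cav2* and *Cav2* with *Ehd4*. *Pacsin2* was lowest in both, at 11.9 ± 3.24 and 11.6 ± 0.761 CPM per kb.

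Ratios within a library do not depend on the library's scaling. *Plvap* per *Cav1*, both per kb, was 0.0228, 0.0570 and 0.0217 in *ControlΔEC* replicates 1, 2 and 3. It was 0.248, 0.267 and 0.225 in *Wt1KOΔEC* replicates 1, 2 and 3, so that even *ControlΔEC* replicate 2 was far below all of these. *Cavin1* per *Cav1* was 0.178, 0.335 and 0.293 in *ControlΔEC* and 0.557, 0.584 and 0.492 in *Wt1KOΔEC*. Here too no library overlapped, and neither gene was called by edgeR. How often the ratios of other gene pairs do not overlap was not counted, so nothing is read from an absence of overlap here. *Cavin2* per *Cavin1* was 0.790, 0.576 and 0.528 in *ControlΔEC* and 0.427, 0.361 and 0.486 in *Wt1KOΔEC*, lower in *Wt1KOΔEC* without overlap. The neighbouring caveolins kept no such order, with *Cav2* per *Cav1* at 0.0742, 0.0967 and 0.0412 in *ControlΔEC* and 0.0555, 0.0632 and 0.110 in *Wt1KOΔEC*. The ratios of *Cavin3* to *Cavin1* and of *Ehd4* to *Ehd2* overlapped as well. These ratios were computed from the values that chose the genes and were not tested.

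**Figure D4:**
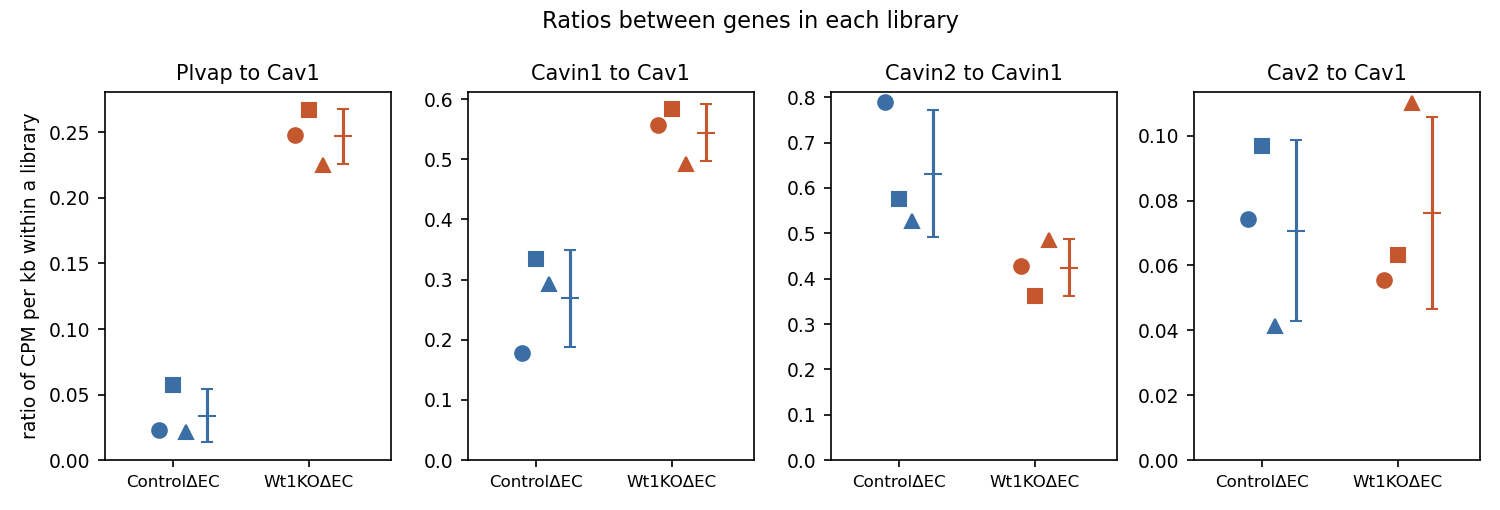
Ratios of CPM per kb within each library for 4 pairs of genes, with the mean ± SD of the 3 libraries beside the points (blue, *ControlΔEC*; orange, *Wt1KOΔEC*; marker shapes give the replicate number); each axis starts at 0. *Plvap* to *Cav1* and *Cavin1* to *Cav1* are higher and *Cavin2* to *Cavin1* lower in every *Wt1KOΔEC* library, and *Cav2* to *Cav1* overlaps.

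The spread between libraries was itself unequal. The coefficient of variation over 3 libraries was larger in *ControlΔEC* than in *Wt1KOΔEC* for 7 of the 9 genes, all but *Cav2* (31.9% and 42.8%) and *Ehd4* (6.98% and 11.1%). For *Cav1* it was 32.2% in *ControlΔEC* and 3.74% in *Wt1KOΔEC*, and for *Cavin1* 29.3% and 5.76%. The same direction was common, since 73.2% of the 3301 genes with a mean of at least 50 CPM varied more in *ControlΔEC*, with medians of 17.0% and 10.3%.

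Genes with the most similar profile were sought as the 5 with the smallest root mean square difference in centred log2 CPM over the 6 libraries, among 8471 genes with a mean of at least 10 CPM. For *Plvap* they were *Serpina3g* (0.292), *Actr3-ps* (0.306), *Col4a5* (0.382), *Gata4* (0.403) and *Eno1* (0.409). Of these *Gata4*, a transcription factor of endocardium and heart muscle, was at 21.7, 50.4 and 20.8 CPM in *ControlΔEC* and at 95.3, 98.3 and 87.8 CPM in *Wt1KOΔEC*. For *Cav1* they were *Noct* (0.110), *Stk17b* (0.131), *Kitl* (0.131), *Meox2* (0.132) and *Klhl28* (0.134). The profiles nearest to *Plvap* lay further away than those nearest to *Cav1*. The distance includes the genotype difference on which both genes were chosen, so nothing is read from this. *Meox2*, a homeobox gene of ECs, was at a mean of 135 CPM in *ControlΔEC* and 75.7 CPM in *Wt1KOΔEC*.

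Around the caveola, 6 further lists of genes were read in the same fit. They too were drawn up with earlier results of these data known, so their calls are no independent evidence. No gene of any of them was called by edgeR at the adjusted p, against 0.0736% of all genes tested. At that share nothing can be read from the absence of calls in lists of this size, here or below. With the same fold limit and an unadjusted p, 1 gene of the caveola relatives passed, 3 of the caveola-associated proteins, 2 of the clathrin route, 3 of cholesterol supply and none of transcytosis or of other clathrin-independent routes, against 10.1% of all genes tested. DESeq2 called 1 gene in each of the first 4 of these lists and none in the last 2, against 4.83% of the genes to which it gave an adjusted p. On the genes that passed the filter on low counts it no longer called those of the caveola-associated proteins and of cholesterol supply. An absence of overlap in a list gene stands beside 10.3% of all genes tested that were higher in *Wt1KOΔEC* without overlap, and 8.97% lower. Nothing is read from it alone.

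Among the relatives of the coat genes, 3 that are typical of muscle or neurons were low. *Cav3*, the muscle caveolin, was at 0.608 to 1.32 CPM in *ControlΔEC* and at 0 to 0.955 CPM in *Wt1KOΔEC*. *Cavin4*, the muscle cavin, had counts in 1 library (0.760 CPM in *ControlΔEC* replicate 1), and *Pacsin1*, the neuronal pacsin, was at 0.0347 CPM in 1. Of the 6 relatives 4 were tested and edgeR called none. *Ehd3*, an EHD ATPase of endosomal recycling, was at 9.36, 8.56 and 6.73 CPM in *ControlΔEC* and at 31.2, 14.8 and 15.7 CPM in *Wt1KOΔEC*. Each *Wt1KOΔEC* library was above each *ControlΔEC* library (log2 fold change 1.32, SE 0.35, adjusted p = 0.209 from edgeR and 0.0177 from DESeq2, which called it). *Ehd1*, the fourth EHD gene, was at 186 to 205 CPM and 142 to 185 CPM (log2 fold change -0.26, SE 0.16, adjusted p = 0.5499 from edgeR).

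Of 12 genes for proteins that are known to reside in caveolae or to bind caveolin 1, edgeR called none, and 3 had positive and 9 negative fold changes, with a median log2 fold change of -0.35 against -0.03 over all genes tested. *Nos3*, the endothelial nitric oxide synthase that caveolin 1 holds inactive, was at 555, 705 and 517 CPM in *ControlΔEC* and at 386, 504 and 378 CPM in *Wt1KOΔEC*. Its libraries did not overlap (log2 fold change -0.49, SE 0.18, adjusted p = 0.310 from edgeR). *Bmpr2*, a BMP receptor, was lower without overlap too, at 32.1 to 52.3 CPM against 21.0 to 31.8 CPM (log2 fold change -0.68, SE 0.25, adjusted p = 0.307 from edgeR). *Kdr*, which encodes VEGF receptor 2, was at 1029 to 1202 CPM against 860 to 991 CPM (log2 fold change -0.29, SE 0.14, adjusted p = 0.425 from edgeR). *Cd36*, a fatty acid transporter, shared the pattern of *Cav1*, at 1055, 367 and 1080 CPM in *ControlΔEC* and 525, 398 and 429 CPM in *Wt1KOΔEC*. Its *ControlΔEC* replicate 2 was below every other library, so the genotypes overlapped. With all libraries *Cd36* was not called (log2 fold change -0.89, SE 0.35, adjusted p = 0.334 from edgeR). Without that replicate edgeR called it (log2 fold change -1.24, SE 0.15, adjusted p = 0.0295), against 0.165% of the genes then tested. Nothing is read from that call, because the library left out was the one that overlapped. *Ptgis*, prostacyclin synthase, was at 12.8, 16.9 and 19.4 CPM in *ControlΔEC* and at 25.5, 46.0 and 25.6 CPM in *Wt1KOΔEC* (log2 fold change 0.98, SE 0.30, adjusted p = 0.243 from edgeR and 0.0498 from DESeq2, which called it).

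Other ways across or into the cell were read in the same fit. None of 11 genes of endothelial transcytosis was called, 8 had positive and 3 negative fold changes, and their median log2 fold change was 0.05. *Vldlr*, a lipoprotein receptor, was at 2.53 to 2.95 CPM in *ControlΔEC* and 0.486 to 1.12 CPM in *Wt1KOΔEC* (log2 fold change -1.66, SE 0.80, adjusted p = 0.428 from edgeR). *Tfrc*, the transferrin receptor, was at 4.49, 8.62 and 20.3 CPM against 29.0, 18.6 and 19.0 CPM, with overlap (log2 fold change 1.00, SE 0.50, adjusted p = 0.442 from edgeR). *Mfsd2a*, the lipid transporter that restrains caveolar transcytosis in the brain, was at 0 to 1.61 CPM in *ControlΔEC* and 0 to 0.333 CPM in *Wt1KOΔEC*, and with no counts in 1 and 2 of the 3 libraries its spread was too wide for a difference to be read. The HDL carrier receptor *Scarb1* was at 170 to 220 CPM and 187 to 200 CPM (log2 fold change 0.0031, SE 0.15).

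Of 18 genes of the clathrin route edgeR called none, with 13 positive and 5 negative fold changes and a median of 0.07 on the log2 scale. *Dnm3*, a dynamin, was at 4.47, 13.7 and 23.8 CPM in *ControlΔEC* and at 4.04, 2.86 and 4.35 CPM in *Wt1KOΔEC*. The lowest *ControlΔEC* library was just above the highest *Wt1KOΔEC* library (log2 fold change -1.90, SE 0.57, adjusted p = 0.235 from edgeR and 0.0285 from DESeq2, which called it). *Dnm2*, the dynamin that severs vesicles in most cells, was at 165 to 236 CPM and 177 to 218 CPM. The clathrin light chain *Clta* was at 161 to 178 CPM against 199 to 218 CPM, without overlap, and the heavy chain *Cltc* at 503 to 549 CPM against 425 to 488 CPM, without overlap in the other direction (log2 fold changes 0.28, SE 0.14, and -0.17, SE 0.14; adjusted p = 0.439 and 0.694 from edgeR). *Amph* had no counts in any *ControlΔEC* library and at most 0.989 CPM in *Wt1KOΔEC*. Of 7 genes of other clathrin-independent routes none was called, and the smallest p was that of *Sh3gl1*, endophilin A2 (110 to 133 CPM against 145 to 160 CPM, log2 fold change 0.32, SE 0.15, adjusted p = 0.415 from edgeR), followed by *Arf6* (13.01 to 32.0 CPM against 14.4 to 17.1 CPM, log2 fold change -0.55, SE 0.33, adjusted p = 0.547 from edgeR).

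Caveolae require cholesterol, and 18 genes of its synthesis, uptake and export were read as well. None was called by edgeR, 12 had positive and 6 negative fold changes, and the median log2 fold change was 0.07. *Fdft1*, squalene synthase, was at 26.02, 26.8 and 33.5 CPM in *ControlΔEC* and at 44.0, 46.2 and 40.4 CPM in *Wt1KOΔEC*, higher without overlap (log2 fold change 0.60, SE 0.19, adjusted p = 0.260 from edgeR and 0.0438 from DESeq2, which called it). *Abca1*, which exports cholesterol, was at 173, 117 and 192 CPM against 92.7, 105 and 117 CPM (log2 fold change -0.62, SE 0.21, adjusted p = 0.267 from edgeR). *Npc1*, which releases cholesterol from lysosomes, was at 26.4 to 34.1 CPM against 14.8 to 24.8 CPM (log2 fold change -0.73, SE 0.26, adjusted p = 0.288 from edgeR), and *Soat1*, which esterifies it, was at 79.9 to 94.8 CPM against 52.9 to 70.0 CPM (log2 fold change -0.47, SE 0.17, adjusted p = 0.296 from edgeR). *Npc1* and *Soat1* did not overlap, and for *Abca1* the highest *Wt1KOΔEC* library was just below *ControlΔEC* replicate 2.

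**Figure D5:**
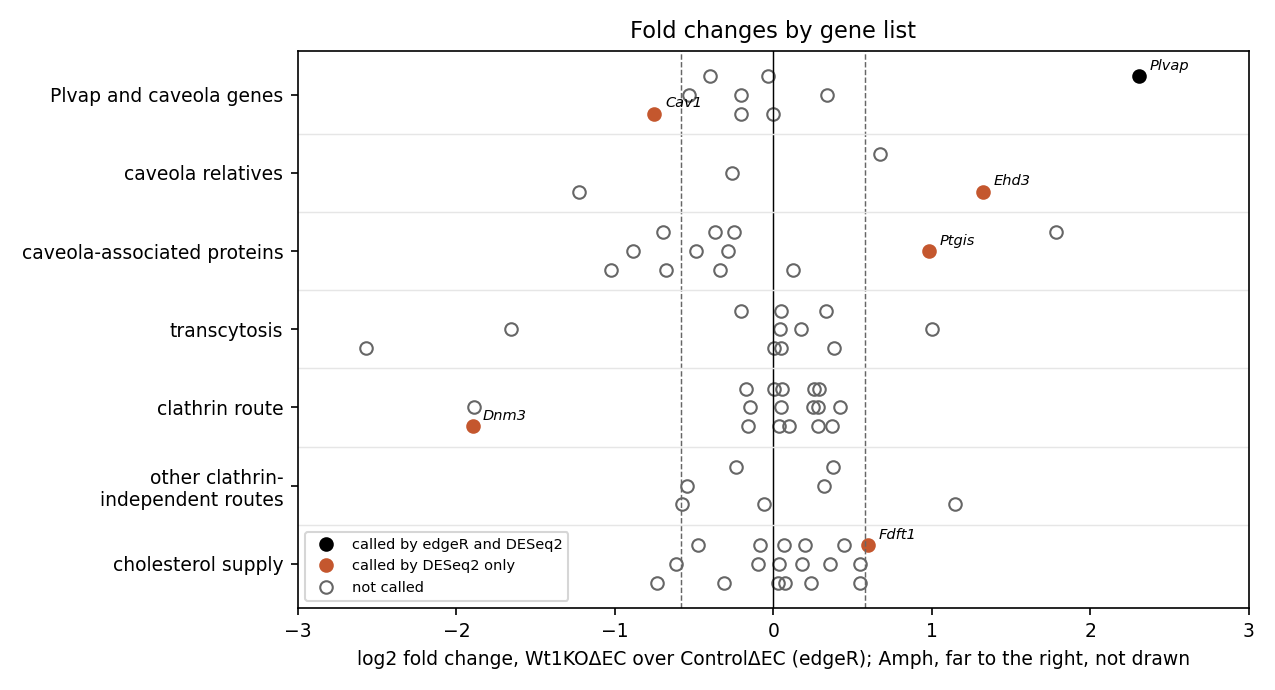
Log2 fold change, *Wt1KOΔEC* over *ControlΔEC*, of each tested gene by list (1 point per gene, spread vertically for legibility; dashed lines, fold limit of 0.58 in either direction). *Plvap* at 2.31 is called by edgeR and DESeq2, and *Cav1*, *Ehd3*, *Ptgis*, *Dnm3* and *Fdft1* by DESeq2 alone; *Amph*, with no counts in *ControlΔEC*, is not drawn.

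Markers of other cells moved with the genotypes, and their part in the values above was not tested. Over all genes, edgeR called 0.0736%, DESeq2 4.83% and an unadjusted p from edgeR with the fold limit 10.1%. The counts below stand beside these shares, and lists of this size are too small for an absence of edgeR calls to be read. All 6 endocardial markers had higher means in *Wt1KOΔEC*, with none called by edgeR, 3 by DESeq2 and 4 past the fold limit at an unadjusted p, and their summed level was 236 to 332 CPM in *ControlΔEC* and 375 to 465 CPM in *Wt1KOΔEC*. The 6 lymphatic endothelial markers were also all higher in mean, with none called by edgeR, 2 by DESeq2 and 2 at an unadjusted p (311 to 347 CPM against 409 to 578 CPM in sum). Of 8 fibroblast markers 7 had higher means, and the sum was 679 to 983 CPM against 1347 to 1554 CPM. Of these edgeR called *Col1a1* and DESeq2 4, *Col1a1*, *Col1a2*, *Col3a1* and *Dcn*. The study lists *Col1a1*, *Col3a1* and *Dcn* among venous markers, and *Col1a1* among fibroblast genes as well. Of 8 mural cell markers tested 7 had lower means, with none called by edgeR, 3 by DESeq2 and 3 at an unadjusted p, and with sums of 469 to 637 CPM and 327 to 382 CPM. All 6 macrophage markers had lower means, with none called by edgeR, 2 by DESeq2 and 4 at an unadjusted p, and *ControlΔEC* replicate 2 had the highest sum (597 CPM, against 202 to 281 CPM in the other *ControlΔEC* libraries and 121 to 190 CPM in *Wt1KOΔEC*). *Rgs5*, a pericyte gene that the study lists among arterial markers, was split within *ControlΔEC* as *Cav1* was, at 165, 26.8 and 164 CPM. In *Wt1KOΔEC* it was at 25.4, 17.9 and 19.4 CPM. The mural markers did not share this split as a set. Within *ControlΔEC*, *Pdgfrb*, *Cspg4* and *Acta2* were also lowest in replicate 2, but *Kcnj8*, *Notch3* and *Tagln* were not. *Abcc9* was highest there, at 233, 289 and 268 CPM. Of 7 epicardial markers 6 had higher means, with none called by edgeR and 2 by DESeq2 (*Upk3b* and *Msln*, both higher), and the sum was 4.54 to 13.5 CPM against 14.2 to 52.6 CPM. Of 6 erythroid markers 4 had lower means, with sums of 5188 to 11150 CPM and 3637 to 6179 CPM. DESeq2 called 2 of them in opposite directions and edgeR none, *Alas2* lower and *Hbb-y*, an embryonic globin, higher at 27.7, 43.5 and 7.39 CPM in *ControlΔEC* against 183, 102 and 184 CPM in *Wt1KOΔEC*. Cardiomyocyte markers summed to 179 to 244 CPM and 151 to 323 CPM, with none called by either tool and *Nkx2-5* at 0 in all *ControlΔEC* libraries.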

How the data were processed

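RNA-Seq libraries of sorted coronary ECs were analysed, 3 per genotype, grouped by their labels. The authors mapped reads with STAR 2.7.8a and estimated gene levels with RSEM 1.3.0 on GENCODE vM27; their methods give GRCm39 as the genome, whereas the submitters' processing notes give GRCm38. The deposited values are expected counts per gene, whole numbers without normalization, from a protocol without strand or molecular identifiers, so overlapping genes on opposite strands cannot be separated.

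The tools were edgeR 4.0.16 (TMM, quasi-likelihood F test, Benjamini-Hochberg adjustment) and limma 3.58.1 after a filter of at least 10 counts in at least 2 libraries, and DESeq2 1.42.0 at its defaults on all 24536 genes with any count, in R 4.3.3. A call needed an adjusted p under 0.05 with a log2 fold change beyond 0.58 in either direction. Standard errors were derived as log2 fold change divided by the root of F. Library totals were 26037324 to 44779020 counts. *Plvap*, the coat genes and all lists were chosen with earlier results of these data known. Genes named are the 9, list genes (at least those called or the 2 with the smallest p), *Wt1* and the 5 nearest profiles of *Plvap* and *Cav1*; *Gtpbp3* and *Rn18s* were named after their values were seen. The count of *Arhgap26* was read from the row with counts of 2 that carry the symbol. Positions and exonic lengths were from GENCODE vM39 on GRCm39, promoters from RefSeq on GRCm38.p6. The fits were tested on simulated data.

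Alternatives were DESeq2, limma-voom, RLE size factors, upper-quartile normalization, library size only, no filter, filterByExpr, 10 counts in every library, no fold limit, unadjusted p, a replicate block and each library left out; DESeq2 on the filtered genes, a fit without *Rn18s* and mitochondrial genes and offsets for length and GC content, alone and with the block, were added after seeing the data. Library identifiers run consecutively within each genotype, so a batch that follows genotype cannot be told apart from it.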

Additional observations from a re-analysis of the deposited data

How the results depend on the processing

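The 9 genes were chosen on this contrast, so their calls in other fits of the same libraries describe how far the values move and support nothing. The log2 fold change of *Plvap* was 2.15 to 2.48 over 19 alternative fits, all of which called it. *Cav1* was called by DESeq2 (-0.75) with and without the filter and by edgeR without *ControlΔEC* replicate 2 (-0.99), and no other coat gene was called in any fit. The number of the 9 genes called was 2 with DESeq2, 2 with DESeq2 on the filtered genes, 2 with an unadjusted p, and 1 to 2 with single libraries left out. With DESeq2 1 of the caveola relatives, 1 caveola-associated gene, 1 gene of the clathrin route and 1 of cholesterol supply were called; on the filtered genes 1 relative (*Ehd3*) and 1 gene of the clathrin route (*Dnm3*) were, and neither *Ptgis* nor *Fdft1*. With an unadjusted p the 4 counts were 1, 3, 2 and 3. With single libraries left out 0 to 1 caveola-associated genes were called, the 1 being *Cd36* without *ControlΔEC* replicate 2. Other counts were within 1.5 times of those reported, and the cause of these moves was not tested. *Cavin3* and *Pacsin2*, near 0, changed sign between fits.

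With the replicate number as a block (replicate block), *Plvap* alone was called among the 9 (2.32) and 5 genes in all, against 12. Deviations of same-numbered libraries correlated at 0.0566, 0.00448 and 0.0201, so the numbers were not taken to pair the libraries. The count over all genes was 767 with DESeq2, which was fitted without the filter, 599 with DESeq2 on the filtered genes, 296 with edgeR without a filter, 113 with 10 counts in every library, 8 with limma-voom, 6 with length and GC offsets and 2 to 37 with single libraries left out. Scaling by library size only moved the median log2 fold change of all genes to -0.18. On CPM without division by length *Plvap* was the ninth in *ControlΔEC* and the fifth in *Wt1KOΔEC*. Genes with no counts in several libraries, such as *Amph* and *Cavin4*, were too low for a difference to be read. The part of depth in this was not tested.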
